A study of Mus musculus with 4 samples.

Results

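The mRNAs examined here encode the kinases and F-box ubiquitin ligases that act on the Per and Cry proteins of the circadian clock. They are 9 of the 37310 genes in the expression table, chosen by symbol: Csnk1d, Csnk1e, Csnk2a1, Csnk2a2, Csnk2b, Prkaa1, Btrc, Fbxw11 and Fbxl21. All 9 had a mean over the 4 libraries of 10 or more and were tested, as were 14510 genes in all. The libraries are stranded mRNA-seq of JM8 mouse embryonic stem cells (mESCs), a line of the C57BL6/N strain, 2 of them wild-type and 2 Bmal1-/- by their labels. Both groups grew without feeder cells in serum-free N2B27 medium with LIF, 1 µM of the Mek inhibitor PD0325901 and 3 µM of the Gsk3 inhibitor CHIR99021, so that Gsk3, itself a kinase of clock proteins, was inhibited in the controls as well. The wild-type group is the parental line and the Bmal1-/- group is a single CRISPR/Cas9 clone that carries insertions or deletions in both alleles of Bmal1. An effect of the clone and an effect of the genotype therefore cannot be told apart, and the 2 libraries of a group are, by the study's methods, biological replicates of that line.

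In the clock, Bmal1 and Clock switch on the Per and Cry genes, and the Per and Cry proteins return to the nucleus to repress Bmal1 and Clock. The delay of this loop is set largely after translation. Casein kinases 1 delta and epsilon (Csnk1d and Csnk1e) phosphorylate Per proteins, and the F-box proteins beta-TrCP1 and beta-TrCP2 (Btrc and Fbxw11) bind the phosphorylated Per and deliver it to the SCF ubiquitin ligase for destruction by the proteasome. AMPK, whose catalytic subunit alpha 1 is encoded by Prkaa1, phosphorylates Cry1 and so marks it for degradation, and Fbxl21 is an F-box protein that binds Cry proteins. Casein kinase 2, built of catalytic subunits (Csnk2a1, Csnk2a2) and a regulatory subunit (Csnk2b), phosphorylates Bmal1 and Per2. Undifferentiated mESCs carry these mRNAs although their clock genes do not cycle.

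Values below are the deposited normalised values, that is, read counts divided by a scaling factor of the library (trimmed mean of M values, TMM). Libraries held 21504265 to 23329034 reads on genes, and 3 reads corresponded to values of 2.82 to 3.19. The targeted gene, listed as Arntl, had values of 678 and 733 in the wild-type libraries and of 556 and 590 in those labelled Bmal1-/-. It was lower, with a log2 fold change of -0.30 (limma, adjusted p = 0.0011). Its mRNA was thus present under both labels and does not by itself identify the genotype. The paper, by contrast, detected no Bmal1 mRNA by RT-qPCR and no Bmal1 protein in its Bmal1-/- cells. The 12 mESC markers summed to 119772 to 122823 in wild-type and 128926 to 130841 in Bmal1-/- libraries. They did not move together, since 5 of them were significantly higher and 5 lower. Markers of other cells also moved with the label. The sum of 6 trophoblast markers was 1778 to 1791 against 739 to 796, that of 6 neural markers 3931 to 4198 against 2353 to 2543, and that of 6 fibroblast markers 144 to 156 against 311 to 330. Among these, 3 of 4 tested trophoblast and 2 of 5 tested neural genes were significantly lower, and 2 of 3 tested fibroblast genes higher. All marker counts here stand beside 24.0% of all genes tested that were significantly higher and 28.6% that were lower. The 4 two-cell-like genes in the table summed to 135 to 182 against 1966 to 1983, and all 4 were significantly higher. The sum of 6 primitive endoderm markers was 172 to 185 against 182 to 185, with 2 of its 4 tested genes significantly higher and 1 lower. Elf5 (trophoblast), Fabp7 (neural) and Col1a2, Dcn and Lum (fibroblast) had 3 reads or fewer in every library. In bulk libraries a different number of cells of a type and a different amount of RNA per cell cannot be told apart. The part of other cell states in the results that follow was not tested.

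The promoters of the member with the largest significant difference, Csnk1e, and of Csnk2b, the member that was significantly lower, are shown because Bmal1 binds with Clock to E-box motifs. RefSeq on GRCm38.p6 gives Csnk1e 4 windows and Csnk2b 3, one for each annotated start. The sequences are the 250 bases before the most upstream of these starts, 5′ to 3′ on the strand of the gene. For Csnk1e this is chr15:79442144-79442393 on the minus strand and for Csnk2b chr17:35122054-35122303 on the minus strand. Capitals mark a match to the loose E-box CANNTG.
Csnk1e: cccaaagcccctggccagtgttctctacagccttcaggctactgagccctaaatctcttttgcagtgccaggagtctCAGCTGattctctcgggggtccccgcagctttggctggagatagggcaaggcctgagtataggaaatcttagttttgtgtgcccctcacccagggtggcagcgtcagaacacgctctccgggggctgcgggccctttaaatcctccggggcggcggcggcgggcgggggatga
Csnk2b: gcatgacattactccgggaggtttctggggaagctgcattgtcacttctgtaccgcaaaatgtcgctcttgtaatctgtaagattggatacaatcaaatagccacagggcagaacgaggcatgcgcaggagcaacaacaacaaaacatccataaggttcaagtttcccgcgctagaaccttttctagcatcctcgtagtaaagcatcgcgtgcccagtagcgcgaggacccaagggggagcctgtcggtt
RefSeq windows, which span 250 bases before to 50 after a start, were matched for 7 of the 9 members, with 12 windows in all. Csnk1d and Btrc were not matched. Both strands were searched for the canonical E-box CACGTG, the E-box variant CACGTT and CANNTG, which includes CACGTG. None of the 12 windows held CACGTG, which 7.15% of 32851 promoters of the same length held, and none held CACGTT (4.69% of promoters, rounded). CANNTG was present in 4 of the 12 windows, 1 window in each of 4 members, and in 72.3% of all promoters. It lay at -173 in Csnk1e, -98 in Csnk2a1, -177 in Csnk2a2 and -181 and -140 in Fbxw11. Of the Csnk1e windows, the one shown was the only one with a match. A missing match says only that these letters are not in these windows.

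Of the 9 genes, Csnk1e was 1.48-fold higher in Bmal1-/- libraries, Btrc was 1.24-fold higher, and Csnk2b was at 84.7% of its wild-type value. These 3 genes, 33.3% of the members, had an adjusted p under 0.05, against 52.6% of all genes tested, and no member passed a 2-fold change by limma, edgeR or DESeq2, against 7.21% of genes. Split by direction, 2 members were higher and 1 was lower, where the shares of all genes were 24.0% and 28.6%. The values of the 2 groups did not overlap for 7 of the 9 members, against 76.0% of all genes, 5 of them higher (34.6% of genes) and 2 lower (41.4%). The median absolute log2 fold change of the members was 0.09 and that of all genes tested 0.24, so most of these mRNAs differed less between the labels than a typical gene did. Tests are from limma on log2(value + 1), with Benjamini-Hochberg adjustment over all genes tested.

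**Figure D1:**
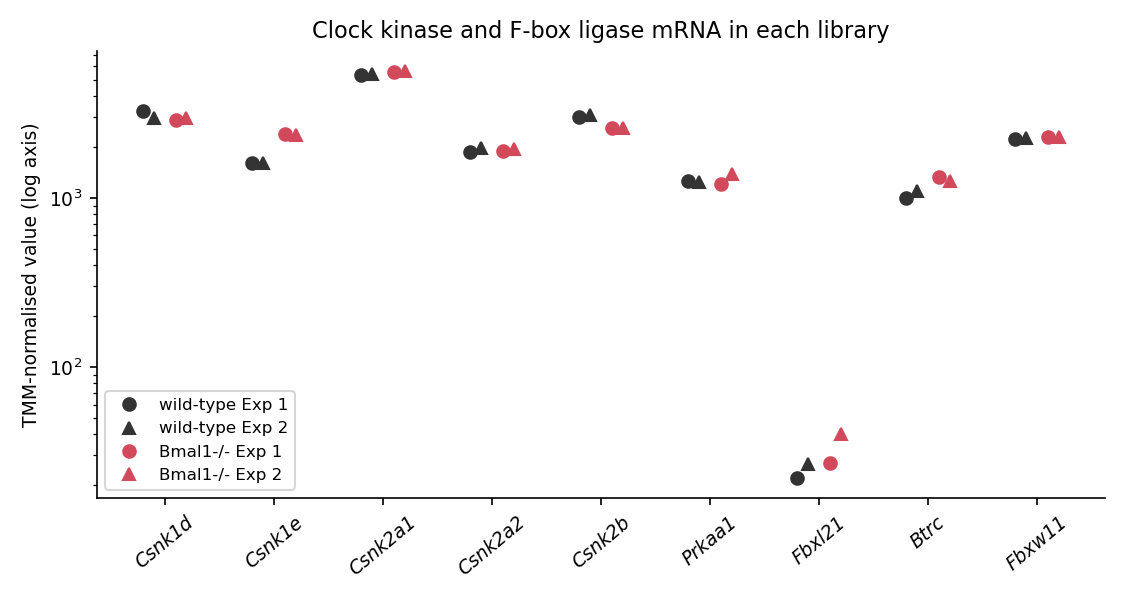
Normalised value of each of the 9 kinase and ligase genes in the 4 libraries, with wild-type and Bmal1-/- libraries in different colours. Csnk1e and Btrc lie higher and Csnk2b lower in both Bmal1-/- libraries, while Csnk2a2 and Prkaa1 overlap.

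Casein kinase 1 epsilon was the member with the largest significant difference. Csnk1e (ENSMUSG00000022433, chr15:79248282-79274349 on the minus strand of mm9) had values of 1597 and 1610 in the wild-type libraries and of 2395 and 2339 in the Bmal1-/- libraries. Both Bmal1-/- libraries lay well above both wild-type libraries, and the replicates of a label differed far less than the labels did. The log2 fold change was 0.56 (SE 0.05, 95% confidence interval 0.46 to 0.66, adjusted p = 5.0e-09), larger in size than that of 81.6% of the genes tested. It ranged from 0.54 to 0.58 when each library was left out in turn. A noncoding gene on the opposite strand, Gm16059, shares 267 exon bases with Csnk1e, but its values were only 1.06 to 7.52.

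Csnk1d, which encodes the closest paralog and acts on the same Per sites, did not follow. Csnk1d (ENSMUSG00000025162, chr11:120819779-120852644, minus strand) had values of 3247 and 2974 in wild-type and 2883 and 2949 in Bmal1-/- libraries. The lower wild-type library exceeded the higher Bmal1-/- library by little, and the groups did not overlap. The log2 fold change was -0.09 (SE 0.05, interval -0.19 to 0.01, adjusted p = 0.11), and it was -0.16 with an adjusted p of 0.0071 in a limma refit without wild-type replicate 2. In such a refit the single library left in a group is assumed to vary like the pair of the other group. Csnk1d overlaps the lactate transporter gene Slc16a3 on the opposite strand over 831 exon bases, and Slc16a3 had values of 371 and 438 in wild-type and 400 and 358 in Bmal1-/- libraries.

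Within each library, the level of Csnk1d relative to Csnk1e, per length of exon, was 2.23 and 2.02 in wild-type and 1.32 and 1.38 in Bmal1-/- libraries. On the log2 scale these ratios were 1.15 and 1.02 against 0.40 and 0.47, a difference of -0.65. Such a ratio does not depend on how the libraries were scaled. The exact two-sided permutation test gave p = 0.333, the smallest value that 2 libraries against 2 can give, for this and each of the other 3 ratios tested, so that none of them can reach significance by itself. Csnk1a1, the alpha isoform, had a log2 fold change of -0.03 (adjusted p = 0.59), and Csnk1g2, a membrane-bound gamma isoform, fell by 0.31 on the log2 scale (adjusted p = 1.9e-05). In all, 1 of the 6 CK1 genes was significantly higher and 1 lower, against 24.0% and 28.6% of all genes. The median log2 fold change of the family was 0.0054, against -0.030 for all genes.

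The pattern of Csnk1e over the 4 libraries, centred on its mean log2 value, was most like those of Wdfy2, Tex19.1 and Dbt. Their root mean square differences from Csnk1e were 0.011 for Wdfy2, 0.012 for Tex19.1 and 0.015 for Dbt on the log2 scale. With 4 libraries in 2 groups, this likeness reflects a log2 fold change close to that of Csnk1e, and these were 0.57 for Wdfy2, 0.56 for Tex19.1 and 0.58 for Dbt.

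The catalytic and regulatory subunits of casein kinase 2 differed. Csnk2b, the regulatory subunit (ENSMUSG00000024387, chr17:35253141-35258998, minus strand), had values of 3005 and 3100 in wild-type and 2589 and 2579 in Bmal1-/- libraries. The groups were clearly apart, with a log2 fold change of -0.24 (SE 0.04, interval -0.33 to -0.15, adjusted p = 1.2e-04). Both catalytic subunits stayed close to their wild-type values. Csnk2a1 (ENSMUSG00000074698, chr2:152052575-152107588, plus strand), the alpha subunit, had values of 5336 and 5373 in wild-type and 5557 and 5608 in Bmal1-/- libraries, which did not overlap. Its log2 fold change was 0.06 (SE 0.04, interval -0.02 to 0.14, adjusted p = 0.21). It passed the threshold when libraries were scaled to equal totals (0.12, adjusted p = 0.014) and with quantile normalisation (0.11, adjusted p = 0.019). Csnk2a2 (ENSMUSG00000046707, chr8:97969996-98012727, minus strand), the alpha prime subunit, had values of 1856 and 1977 in wild-type and 1883 and 1945 in Bmal1-/- libraries. These overlapped, and the interval of its log2 fold change was -0.11 to 0.10 (adjusted p = 0.98).

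Of the 75-base stretches in the exons of Csnk2a1, 22.7% (1397 stretches) also occur elsewhere in the mm9 genome. Of the matches elsewhere, 299 lie in the annotated copy Gm10031 and 1106 in no annotated exon. Gm10031 had values of 107 and 114 in wild-type and 131 and 127 in Bmal1-/- libraries. How reads shared between the copies were counted is not given in the sources used here, so the value of Csnk2a1 carries that uncertainty. Among the other members, a share above 0 was found only for Btrc (0.537%). The level of the 2 catalytic mRNAs together relative to Csnk2b, per length of exon, gave log2 ratios of -0.16 in each wild-type library and of 0.10 and 0.13 in the Bmal1-/- libraries. With the longest transcript as the length these were -0.83 and -0.84 against -0.56 and -0.54. The sign of the ratio thus depends on the length used, and the direction of the difference does not. Neither length removes the dependence of fold changes on transcript length described below. Csnk2a1 relative to Csnk2a2 hardly moved, from 0.61 and 0.53 to 0.65 and 0.62.

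Of the F-box proteins, Btrc rose and its paralog Fbxw11 did not pass the test. Btrc (ENSMUSG00000025217, chr19:45438224-45607831, plus strand) had values of 999.8 and 1092 in wild-type and 1333 and 1260 in Bmal1-/- libraries. No Bmal1-/- library reached down to the wild-type values, and the log2 fold change was 0.31 (SE 0.06, interval 0.19 to 0.43, adjusted p = 1.6e-04). Fbxw11 (ENSMUSG00000020271, chr11:32542724-32646816, plus strand) had values of 2226 and 2241 in wild-type and 2293 and 2277 in Bmal1-/- libraries. The groups were separate but close, with a log2 fold change of 0.03 (interval -0.06 to 0.13, adjusted p = 0.57). The log2 ratio of Btrc to Fbxw11 per length of exon was -1.70 and -1.58 in wild-type and -1.33 and -1.40 in Bmal1-/- libraries, a difference of 0.28, so Fbxw11 remained the more abundant of the beta-TrCP mRNAs in all 4 libraries.

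Fbxl21 (ENSMUSG00000035509, chr13:56623833-56639259, plus strand) was near the lower end of detection. Its values were 22.1 and 26.6 in wild-type and 27.2 and 40.1 in Bmal1-/- libraries, which stand for 21, 25, 29 and 42 reads. The groups did not overlap, but 1 Bmal1-/- library was nearly as low as the higher wild-type library. The log2 fold change of 0.43 had an interval from -0.15 to 1.01 (adjusted p = 0.20), so that neither no change nor a 2-fold change lay outside it at this depth.

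Prkaa1 (ENSMUSG00000050697, chr15:5093861-5131899, plus strand), the AMPK subunit alpha 1, had values of 1260 and 1238 in wild-type and 1203 and 1373 in Bmal1-/- libraries. The Bmal1-/- libraries lay on either side of the wild-type ones, and the log2 fold change was 0.04 (interval -0.08 to 0.17, adjusted p = 0.59). Several other subunits of the AMPK complex passed the test, in both directions. Prkaa2, the alternative catalytic subunit alpha 2, rose by 0.65 on the log2 scale (SE 0.07, adjusted p = 1.7e-07), with values of 593 and 544 in wild-type and 848 and 935 in Bmal1-/- libraries. The scaffold subunit beta 1, Prkab1, fell by 0.52 (adjusted p = 1.8e-07) while beta 2, Prkab2, rose by 0.29 (adjusted p = 6.3e-04). The nucleotide-binding subunit gamma 1, Prkag1, fell by 0.39 (adjusted p = 0.0019), and Prkag2 was at -0.12 (adjusted p = 0.26). Cab39, a scaffold of the upstream kinase Lkb1, rose by 0.49 (adjusted p = 1.2e-08), whereas Stk11, which encodes Lkb1 itself, fell by 0.21 (adjusted p = 0.0014). Of 13 tested genes for AMPK subunits and upstream kinases, 3 were higher and 3 lower, with a median of -0.09, where all genes were at 24.0% higher and 28.6% lower. With the trend over transcript length removed the counts were again 3 and 3, at smaller values for Prkaa2 (0.36) and Prkab2 (0.16), and with GC content also removed they were 3 and 5.

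**Figure D2:**
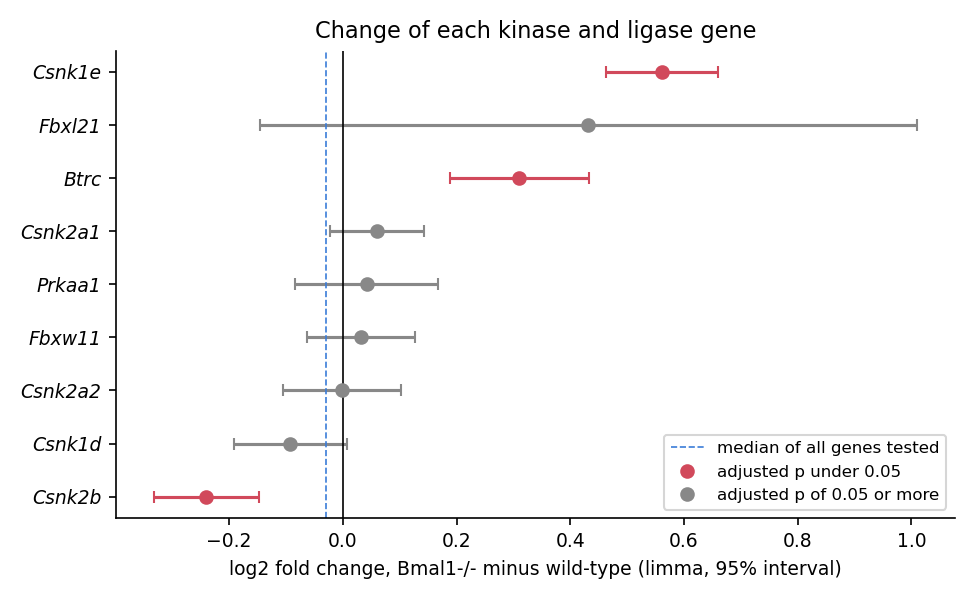
Log2 fold change of each member, Bmal1-/- minus wild-type, with its 95% confidence interval from limma. The intervals of Csnk1e, Btrc and Csnk2b do not reach 0, and that of Fbxl21 is the widest, from -0.15 to 1.01.

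Compared per length of exon, as RPKM, that is, reads scaled by the length of exon and by the depth of the library, the members covered a wide range of levels. Csnk2b was highest, at a mean of 61.7 in wild-type and 54.4 in Bmal1-/- libraries, followed by Csnk2a1 at 33.0 and 35.9. Csnk1d (23.2 in wild-type), Fbxw11 (22.6) and Csnk2a2 (22.2) came next and changed places between the wild-type libraries. Prkaa1 (11.7), Csnk1e (10.9) and Btrc (7.23) followed, and Fbxl21 was lowest at 0.219. In Bmal1-/- libraries Csnk1e, at 16.6 to 17.1, lay above Prkaa1, at 11.8 to 13.4. These places rest on the length of all annotated exons of a gene. With the longest transcript in its place, a setting added after seeing the data, Csnk1d (37.0) stood apart from Fbxw11 (24.3) and Csnk2a2 (22.3) in wild-type, and Csnk1e (22.1) already lay above Prkaa1 (11.7). Csnk1e then overlapped Csnk2a2 in wild-type libraries and lay above both Csnk2a2 and Fbxw11 in Bmal1-/- libraries, at 33.6 to 34.4.

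**Figure D3:**
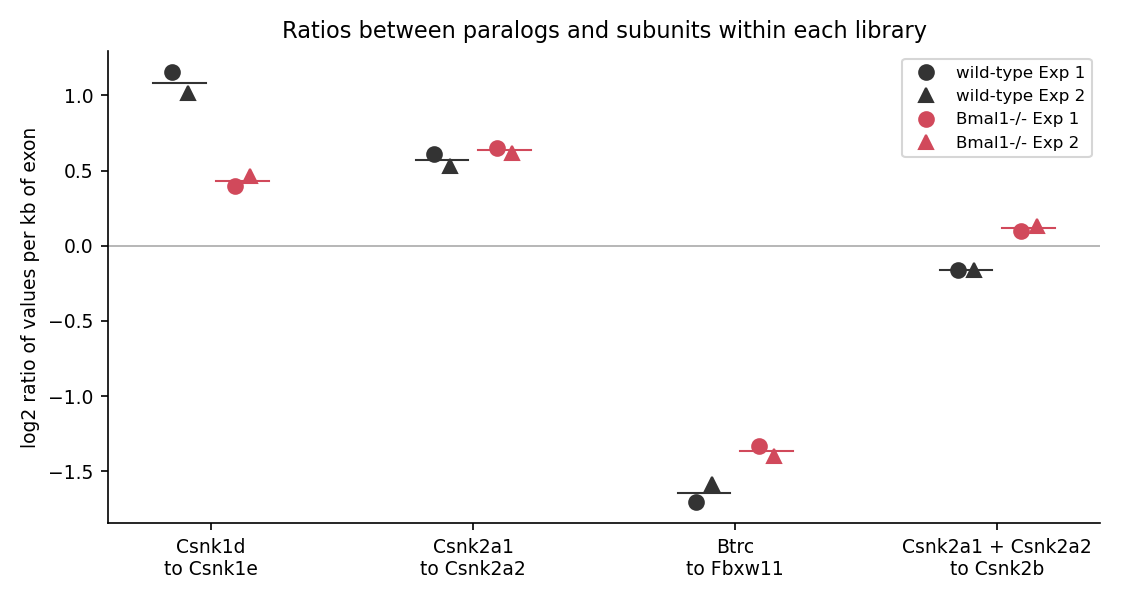
Log2 ratios between paralogs and subunits within each library, from values per kb of exon, with 1 point per library. Csnk1d to Csnk1e is lower in both Bmal1-/- libraries, Btrc to Fbxw11 and catalytic to regulatory CK2 are higher, and Csnk2a1 to Csnk2a2 differs by 0.06. The trend of fold changes over transcript length was not removed from these ratios.

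The differences between the labels depended on transcript length across the whole transcriptome, which bears on Csnk2b and Btrc. Over the 10486 genes whose mean reached 100, the Spearman correlation across genes of transcript length with log2 fold change was 0.43, and it is a description, since all genes come from the same 4 libraries. The fifth of genes with the shortest transcripts (57 to 1826 bases) had a median log2 fold change of -0.23, and the fifth with the longest (4999 to 106824 bases) one of 0.16. Csnk2b has the shortest transcript of the members (961 bases) and its -0.24 was close to the median of its length class. Btrc has the longest (6323 bases) and its 0.31 stood above its class. Length also correlated with the difference between replicates, at -0.31 for wild-type replicate 2 minus 1 and at 0.09 for the Bmal1-/- pair. The cause of the length dependence was not tested.

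When the trend over length was removed in each library, a step chosen after seeing the data, Csnk1e kept its difference at 0.55 (adjusted p = 4.5e-11). Btrc dropped to 0.10 (adjusted p = 0.18), with a range from 0.0031 to 0.19 when each library was left out in turn. Csnk2b dropped to -0.10 (adjusted p = 0.047), and no longer passed once exon GC content was also removed (-0.071, adjusted p = 0.12) or when any 1 library was left out (adjusted p from 0.083 to 0.22). Csnk1d, by contrast, passed the threshold at -0.14 (adjusted p = 0.0097), and its adjusted p without 1 library rose to at most 0.19. In the CK1 family 1 gene was then higher and 4 were lower, against 19.5% and 31.8% of all genes in that fit. Of the members, Csnk1e alone passed the test in the same direction with every setting and every library left out, with the refits without 1 library resting on the spread of the other group.

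**Figure D4:**
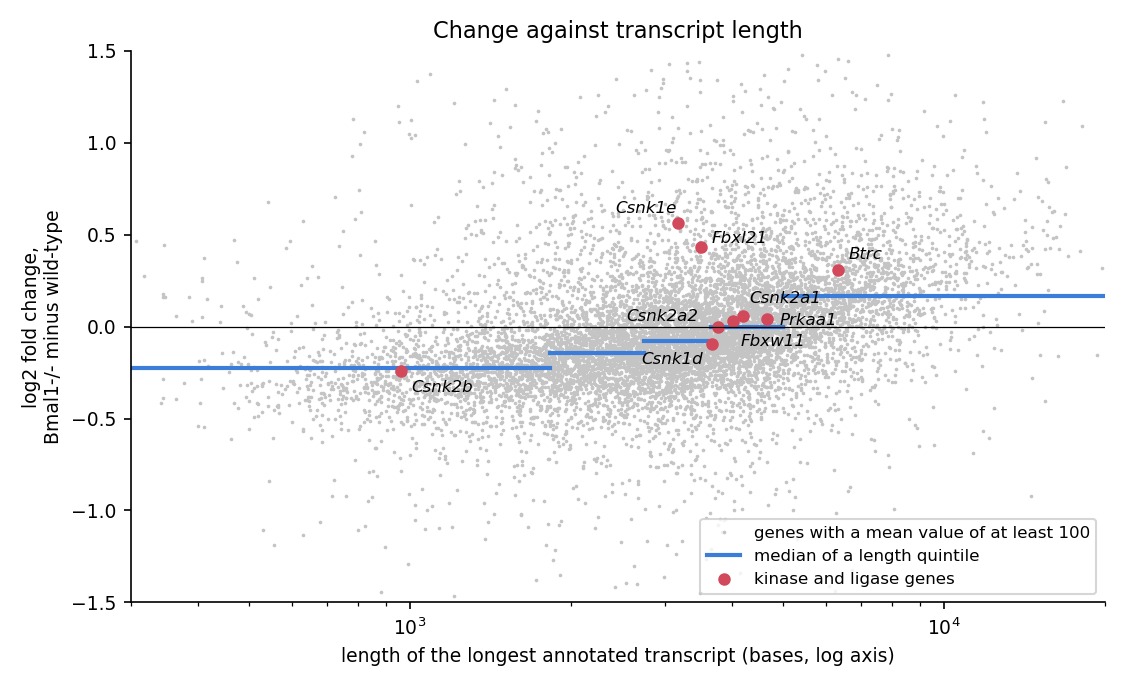
Log2 fold change, Bmal1-/- minus wild-type, against the length of the longest annotated transcript on a log axis, for genes whose mean value reached 100 (grey), the 9 members (red) and the median of each length quintile (blue bars). The medians climb from -0.23 to 0.16, Csnk2b lies on the median of its class and Csnk1e well above its own. A further 159 genes lie outside the drawn range.

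The core of the SCF ligase, into which Btrc, Fbxw11 and Fbxl21 plug through Skp1, was mostly lower. Of 10 genes for the SCF core and for the Nedd8 pathway that activates it, 7 were significantly lower and 2 higher, against 28.6% and 24.0% of all genes, with a median of -0.25. Values of the adaptor Skp1a were 10350 and 11002 in wild-type and 7561 and 8045 in Bmal1-/- libraries, a log2 fold change of -0.45 (adjusted p = 2.5e-08). The cullin modifier Nedd8 fell by 0.52 (adjusted p = 5.1e-08), the ubiquitin-conjugating enzyme Cdc34 by 0.39 (adjusted p = 1.0e-07) and the RING subunit Rbx1 by 0.34 (adjusted p = 3.4e-06). The scaffold Cul1 fell by 0.10 (adjusted p = 0.042). With the length trend removed, 8 of the 10 passed, all of them lower, against 31.8% of all genes lower and 19.5% higher in that fit.

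Among 25 tested F-box proteins of the Fbxl and Fbxw classes, 4 were higher and 4 lower, and the median of 0.019 became -0.015 with quantile normalisation. With the length trend removed 2 were higher and 6 lower, and with GC content also removed 1 and 5. All of these lists are read against the 24.0% of genes that were higher and the 28.6% that were lower, or 19.5% and 31.8% with the length trend removed. Besides Btrc, Fbxl20, a synaptic F-box protein, rose by 0.32 (adjusted p = 4.1e-04), but was at 0.0095 with the length trend removed. The largest difference in this class was that of Fbxw17, which fell by 0.95 (adjusted p = 1.4e-05), and Fbxl19, which binds unmethylated CpG DNA, fell by 0.41 (adjusted p = 1.1e-06). Of 15 other ubiquitin ligases and deubiquitinases of clock proteins, 7 were higher and 1 lower, with a median of 0.09, which turned to 5 higher and 4 lower with a median of -0.07 once the length trend was removed. The largest differences were those of the ligase Mycbp2 (0.68, adjusted p = 6.3e-10), the deubiquitinase Usp9x (0.55, adjusted p = 2.0e-09), and the ligases Ube3a (0.34, adjusted p = 2.2e-05) and Huwe1 (0.34, adjusted p = 7.7e-06). These have long transcripts, and with the length trend removed they were at 0.18, 0.13, 0.21 and -0.14, Huwe1 being significantly lower (adjusted p = 0.0015).

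Of 11 other tested kinases that act on clock proteins, 2 passed, both higher, against 24.0% of all genes higher and 28.6% lower. Once the length trend was removed 4 passed, all lower, against 19.5% of all genes higher and 31.8% lower in that fit. The Jnk kinase Mapk9 was at 0.21 (adjusted p = 0.0045). Gsk3b, the target of the CHIR99021 present in all cultures, was at 0.15 (adjusted p = 0.030) and at -0.16 with the length trend removed, and its paralog Gsk3a was at -0.04 (adjusted p = 0.50). All 6 phosphatases that oppose these kinases passed the test, against 52.6% of all genes, 5 lower and 1 higher, with equal totals, quantile normalisation and DESeq2 each calling 3 lower and 1 higher. Ppp5c, which removes phosphates from casein kinase 1 epsilon and so relieves its autoinhibition, fell by 0.33 (adjusted p = 7.6e-06). The protein phosphatase 1 subunit Ppp1ca fell by 0.24 (adjusted p = 2.5e-05) and Ppp1cc rose by 0.22 (adjusted p = 1.1e-04), and the protein phosphatase 2A subunit Ppp2cb fell by 0.23 (adjusted p = 1.8e-04).

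Of 8 clock genes listed as substrates, Npas2, Cry1 and Per2 mRNAs had larger log2 fold changes than any of the 9 members. Of these, Per2 did not pass the test. Npas2, a paralog of Clock, rose by 1.40 (adjusted p = 1.1e-04) from low values of 25.3 and 17.0 in wild-type to 59.2 and 53.4 in Bmal1-/- libraries, and was the only gene of this list past 2-fold. Clock itself rose by 0.30 (adjusted p = 1.0e-04) but was at -0.012 with the length trend removed. Cry1, marked by AMPK and bound by Fbxl21, had values of 654 and 621 in wild-type and 1268 and 1212 in Bmal1-/- libraries, a log2 fold change of 0.96 (adjusted p = 5.4e-11). Cry2 was at 0.40 (adjusted p = 2.1e-04). Per1 overlapped between the labels (0.15, adjusted p = 0.20), and Per2, at values of 9.48 to 25.4, was at 0.76 (adjusted p = 0.084). In all, 4 of 8 clock substrates were higher and 1 lower, against 24.0% and 28.6% of all genes. Their median was 0.35, against -0.030 for all genes. With the length trend removed 3 were higher and 1 lower, against 19.5% and 31.8% of all genes. The lower one was Arntl, the targeted gene itself, in both fits. The direction of the medians of the SCF, phosphatase and substrate lists held under each scaling tried. These lists were written by hand and are described by their counts and medians only.

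**Figure D5:**
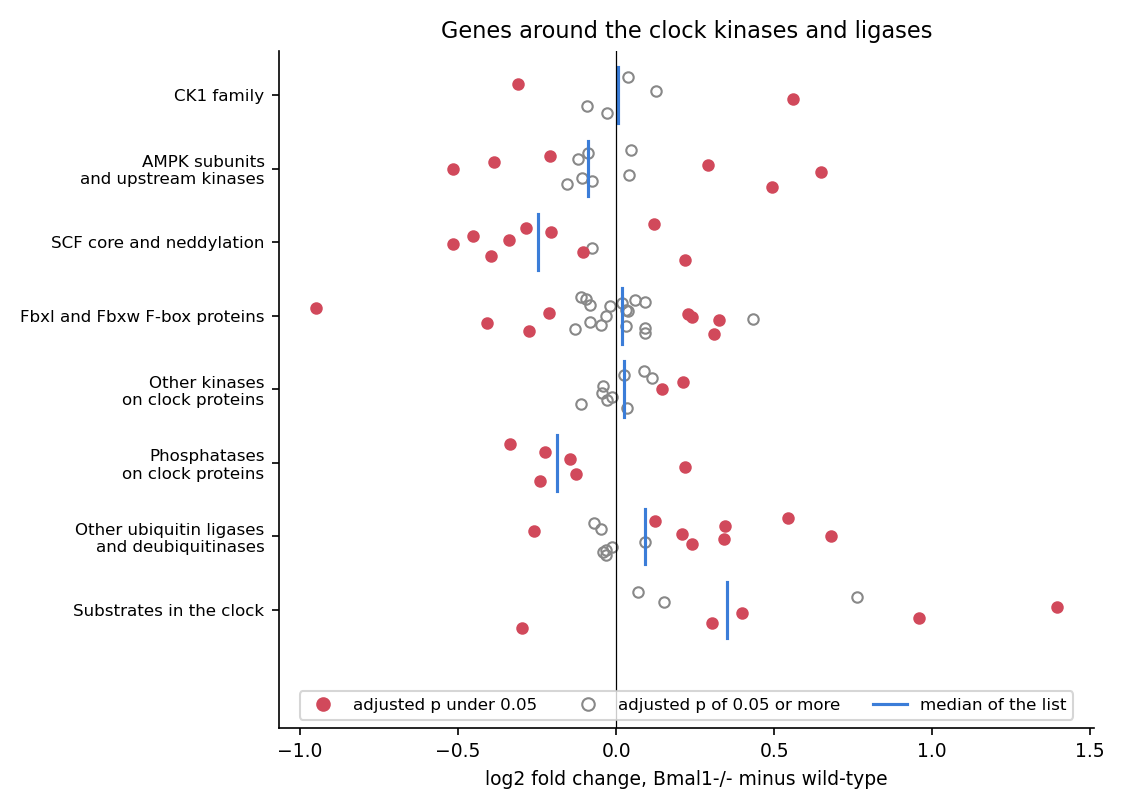
Log2 fold change, Bmal1-/- minus wild-type, of the tested genes of each list around the clock kinases and ligases, filled where the adjusted p was under 0.05, with the list's median as a vertical bar. The SCF core and phosphatases lie mostly below 0 (medians -0.25 and -0.19) and the clock substrates mostly above (0.35).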

How the data were processed

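The deposited table holds, per the labels and the paper's methods, reads aligned by the authors with STAR 2.5.2b to mm9 after bcl2fastq 2.18.0.12 and cutadapt 1.9.1. Its values are a normalised signal that the authors made before deposit by dividing each gene's read count by a TMM factor of the library. The counter and its strand setting are not given in the sources used here. Whole reads were recovered for 100% of the values (tolerance 0.01 of a read).

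limma 3.58.1 (R 4.3.3; lmFit, eBayes with trend) compared 2 with 2 libraries on log2(value + 1), without covariates, over the genes whose mean was 10 or more, with Benjamini-Hochberg adjustment. The test was tested on simulated data. edgeR 4.0.16, run on the recovered reads, called 7682 genes and DESeq2 1.42.0 called 5226, against 7639 by limma. Other alternatives were filters, pseudocounts, scalings, no trend, the replicate number as a block, and each library left out. Removal of length and GC trends (lowess) was added after seeing the data. Same-numbered libraries did not deviate together (correlation -0.02 over 14510 genes).

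Members and lists were chosen with earlier results of these data known. Genes named are the 9 members, up to 4 significant genes of each list by size of change, and fixed partners, paralogs and substrates. Stk11 was added beside its partner Cab39. The values of 1 partner gene are not reported here. Gene models were GENCODE on NCBIM37 (mm9). Sequence searches, exact permutation tests (scipy 1.17.1) and figures (matplotlib 3.10.9) were made in Python 3.11.15.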

Additional observations from a re-analysis of the deposited data

How the results depend on the processing

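Of 388 values recomputed under alternatives, 342 kept their direction and side of the threshold or lay within the tolerance set for counts and values. Csnk1e kept its call under all of them (0.55 to 0.62, and 0.54 to 0.58 with each library left out). A fit without 1 library leaves a single library in its group, which is assumed to vary like the other group. With the length trend removed, Csnk1d was at -0.14, Csnk2a1 at -0.019, Prkaa1 at -0.068, Btrc at 0.097 and Fbxw11 at -0.034, and with GC also removed at -0.12, -0.041, -0.11, 0.10 and -0.050, with Csnk2b at -0.071. Csnk2a1 was called with equal totals (0.12) and quantile normalisation (0.11). Csnk2a2 turned to 0.030 (median-ratio factors), 0.059 (equal totals), 0.043 (quantile), 0.022 (edgeR) and 0.029 (DESeq2). With each library left out in turn, Csnk1d ranged from -0.16 to -0.029, Csnk2a2 from -0.047 to 0.044, Prkaa1 from -0.053 (without Bmal1-/- replicate 2) to 0.14, and the number of other kinases called from 0 to 2. Csnk2a2 was at 0.044 without wild-type replicate 2 and at 0.022 without Bmal1-/- replicate 1. Members called numbered 2 to 4 throughout.

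Without the trend in limma, 5060 genes were called, with 5 in the SCF list, 5 among other ligases and 0 other kinases. Other kinases called numbered 0 with no filter, 4 with equal totals, 1 with DESeq2 and 4 with either length setting, and the CK1 family had 5 called with either length setting. With the longest transcript in place of all exons, the wild-type log2 ratios were 0.74 for Csnk1d to Csnk1e, 1.32 for Csnk2a1 to Csnk2a2, -1.75 for Btrc to Fbxw11 and -0.83 for catalytic to regulatory CK2. The levels of Csnk1d, Csnk1e, Csnk2a1, Csnk2b, Fbxw11 and Fbxl21 rose. Another length shifts a gene alike in every library. Differences between labels in single-gene ratios therefore cannot move, though they are counted among the 342. That of catalytic to regulatory CK2 went from 0.276 to 0.283. The causes of these shifts were not tested. With the replicate number as a block, 7949 genes and 3 members were called and no member's call changed (Csnk1e 0.56), and nothing in the labels pairs the libraries. Depth limits Fbxl21 and Per2, which rest on few reads.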

Other observations

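Ratios computed after the planned ones, per length of exon and as values without a test, add to the balance between paralogs. Prkaa1 to Prkaa2 was 3.64 and 3.90 in wild-type and 2.43 and 2.52 in Bmal1-/- libraries, so that alpha 1 stayed the more abundant catalytic AMPK mRNA. Csnk1a1 to the sum of Csnk1d and Csnk1e was 1.09 and 1.12 against 0.943 and 1.01.

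Of 41 genes of the Fbxl and Fbxw classes in the table, 16 were below the filter. These were Fbxl7, Fbxl13, Fbxl22, Fbxw10, Fbxw13 to Fbxw16, Fbxw18 to Fbxw22, Fbxw24, Fbxw26 and Fbxw28. Prkag3, an AMPK gamma subunit typical of skeletal muscle, and Mapk10, the Jnk kinase typical of neurons, were also below the filter.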
